A study of Mus musculus with 27 samples.

Results

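The genes described here make the protein part of plasma lipoproteins in the liver: the apolipoproteins Apoa1, Apoa2, Apoa4, Apoa5, Apob, Apoc1, Apoc2, Apoc3 and Apoe, and Mttp, the transfer protein that loads Apob with lipid. They were chosen by name for these functions, 10 of the 55414 genes counted, and all 10 passed the minimum for testing, an average of 10 counts over the libraries. Polyadenylated RNA from liver homogenates of 27 female Balb/c mice, 8 weeks old, was sequenced to ask how 2 weeks of carbon tetrachloride (CCl4), which injures hepatocytes and leads to fibrosis, changed the liver, and how agents directed at hyaluronan synthesis altered that change. Mice without CCl4 received olive oil intraperitoneally. They formed the groups control (PBS into the tail vein, 4 mice), 4MU (4-methylumbelliferone, an inhibitor of hyaluronan synthesis, by daily gavage at 600 mg/kg, 3 mice), siLuc-LNP (lipid nanoparticles with an siRNA against luciferase, which mice lack, 3 mice) and siHAS2-LNP (the same kind of particle with an siRNA against the hyaluronan synthase Has2, 3 mice). The matching groups given CCl4 intraperitoneally were CCl4 (2 mice, for which the labels name no gavage or vein injection), CCl4 + 4MU (4 mice), CCl4 + siLuc-LNP (4 mice) and CCl4 + siHAS2-LNP (4 mice). The siRNA dose was 1 mg/kg at the start and 0.5 mg/kg later.

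The liver secretes very-low-density lipoprotein (VLDL), a particle of triglyceride and cholesterol built around a single Apob molecule, and much of the Apoa1 and Apoa2 of high-density lipoprotein (HDL). Smaller apolipoproteins move between particles in plasma and set their fate there: Apoc2 activates lipoprotein lipase, Apoc1 and Apoc3 slow lipolysis and uptake, Apoa5 favours lipolysis, and Apoe is the ligand by which receptors clear remnant particles. Apoa4, in mice made by both intestine and liver, travels on triglyceride-rich particles and HDL.

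Of the 10 genes, 4 lie together on chromosome 9 of GRCm39: Apoa1 (chr9:46139878-46142212, plus strand), Apoc3 (chr9:46142527-46146934, minus strand), Apoa4 (chr9:46151994-46154757, plus strand) and Apoa5 (chr9:46179931-46183217, plus strand). Apoe (chr7:19430034-19434947), Apoc1 (chr7:19422540-19427328) and Apoc2 (chr7:19405504-19411877) are neighbours on the minus strand of chromosome 7. Apoa2 (chr1:171049125-171053948, plus strand), Apob (chr12:8027648-8066835, plus strand) and Mttp (chr3:137795612-137850729, minus strand) stand alone. Promoter sequence of the chromosome 9 cluster is shown because its members differed in their response to CCl4: Apoa4 rose, Apoa5 fell, and Apoa1 did not pass the test. The sequences are the bases just before the start of transcription, read from RefSeq (table on GRCm38.p6) and placed on GRCm39 by exact match, 200 bases for Apoa1 (chr9:46139678-46139877), 102 for Apoa4 (chr9:46151892-46151993) and 250 for Apoa5 (chr9:46179681-46179930), all on the plus strand. Those of Apoa1 and Apoa4 end just before the canonical transcript. Those of Apoa5 end before the RefSeq start, at -57 bases from the start of its canonical transcript, negative being upstream. Capitals mark a TATAAA.
Apoa1: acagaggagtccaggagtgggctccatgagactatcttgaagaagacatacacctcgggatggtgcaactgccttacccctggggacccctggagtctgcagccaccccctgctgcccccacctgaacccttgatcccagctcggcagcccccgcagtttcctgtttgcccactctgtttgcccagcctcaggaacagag
Apoa4: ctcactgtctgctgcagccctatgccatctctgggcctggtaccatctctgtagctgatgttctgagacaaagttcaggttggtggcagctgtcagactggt
Apoa5: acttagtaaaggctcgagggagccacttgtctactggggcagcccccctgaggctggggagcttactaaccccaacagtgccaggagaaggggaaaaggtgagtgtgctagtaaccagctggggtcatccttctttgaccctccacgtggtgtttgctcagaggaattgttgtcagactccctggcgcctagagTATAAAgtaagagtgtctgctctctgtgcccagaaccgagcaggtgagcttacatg

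The 250 bases before the RefSeq start were searched on both strands in the 8 members with an entry. Apoc1 and Apoc3 have none. TATAAA, found in 12.4% of 32851 promoters of this length, lay 56 to 51 bases before the start of Apoa5, 60 to 55 before that of Apob and 212 to 207 before that of Apoa2. A DR1, the direct repeat of AGGTCA with 1 base between the copies, was allowed 2 mismatches in 12 letters and occurred in 3.24% of promoters. It matched Apoa2 63 to 51 bases before the start (TGATCTCTGCCCT as read along the gene, a match to the other strand, with 2 mismatches) and Apoc2 122 to 110 bases before it (AGGCCAGAGGTCA, with 1 mismatch). AGGTCA alone occurred in 14% of promoters and, among the members, in Apoc2, within its DR1. GTTAAT occurred in 6.43% of promoters and in Apoc2. TGACG occurred in 17.8% and in Apoa2, Apoc2 and Mttp, and CCAAT in 33.8% and in Apoa2. None of the letters searched occurred in the windows of Apoa1, Apoa4 and Apoe. The RefSeq start lies at 148 bases (Apoa4), 773 (Apoe), -909 (Apoc2) and -12041 (Mttp) from the start of the canonical transcript, negative being upstream. These windows are therefore not those just before that transcript, and that of Apoe lies inside the gene. The other offsets were 50 bases (Apoa1), 29 (Apob), -57 (Apoa5) and 0 (Apoa2), and the motif positions count from the RefSeq start.

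Libraries held 7044386 to 29425937 counts, so that 3 counts corresponded to 0.102 to 0.426 CPM, the counts scaled to a common library total. Each member but Apoc2 had at least 1566 counts in every library. Apoc2 had 4 to 130, with a median of 29, and 41.62% of its exon bases are shared on the same strand with Apoc2l (0 to 1 counts), and how reads in the shared bases were counted is not given in the sources used here. Its low level, its rank among the members and its tests are uncertain for that reason. Reads of Apoa2 could also include some of Tomm40l (50 to 158 counts) and those of Mttp some of Trmt10a (36 to 241 counts), which overlap them on the opposite strand, since the strand setting of the counting is not given in the sources used here. Has2 had 0 counts in 25 libraries and at most 2 in any, so the knockdown could not be checked at this depth. The 8 hepatocyte markers fixed for this purpose, Alb among them, summed to 131000 to 212000 CPM in the 13 mice without CCl4 and to 84800 to 198000 CPM in the 14 with it, where 2 rose and 4 fell, and the lowest sum was in a CCl4 mouse. Sums in mice without and with CCl4 were 214 to 638 and 385 to 1320 CPM for macrophage markers (5 of 10 rose and 4 fell), 224 to 435 and 329 to 1100 CPM for stellate cell markers (6 of 8 rose and 1 fell), 3.25 to 11.6 and 5.81 to 122 CPM for cholangiocyte markers (4 of 4 rose), and 45.8 to 121 and 51.3 to 116 CPM for sinusoidal endothelial markers (2 of 4 rose and 1 fell). The macrophage sum includes Spp1, which the paper used as a cholangiocyte marker, at 23.3 to 65.5 CPM without CCl4 and 103 to 677 CPM with it. Clec4f of Kupffer cells was at 77.3 to 208 CPM without CCl4 and 20.4 to 157 CPM with it, so the sum does not describe each marker. Marker genes that rose or fell, here and below, were called in CCl4 averaged over 4 arms (defined below). In that comparison 26.3% of all genes were higher and 25.6% lower. In whole-liver RNA, fewer hepatocytes and less RNA of a gene per hepatocyte cannot be told apart, and the part of cell makeup in the results that follow was not tested. Mouse 4 of CCl4 + siHAS2-LNP had the fewest counts, mouse 4 of CCl4 + siLuc-LNP the steepest relation of counts to transcript length (described with the transcript lengths), and mouse 4 of CCl4 + 4MU 2602 counts of Krt19, a cholangiocyte keratin whose median over libraries was 21.

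**Figure D1:**
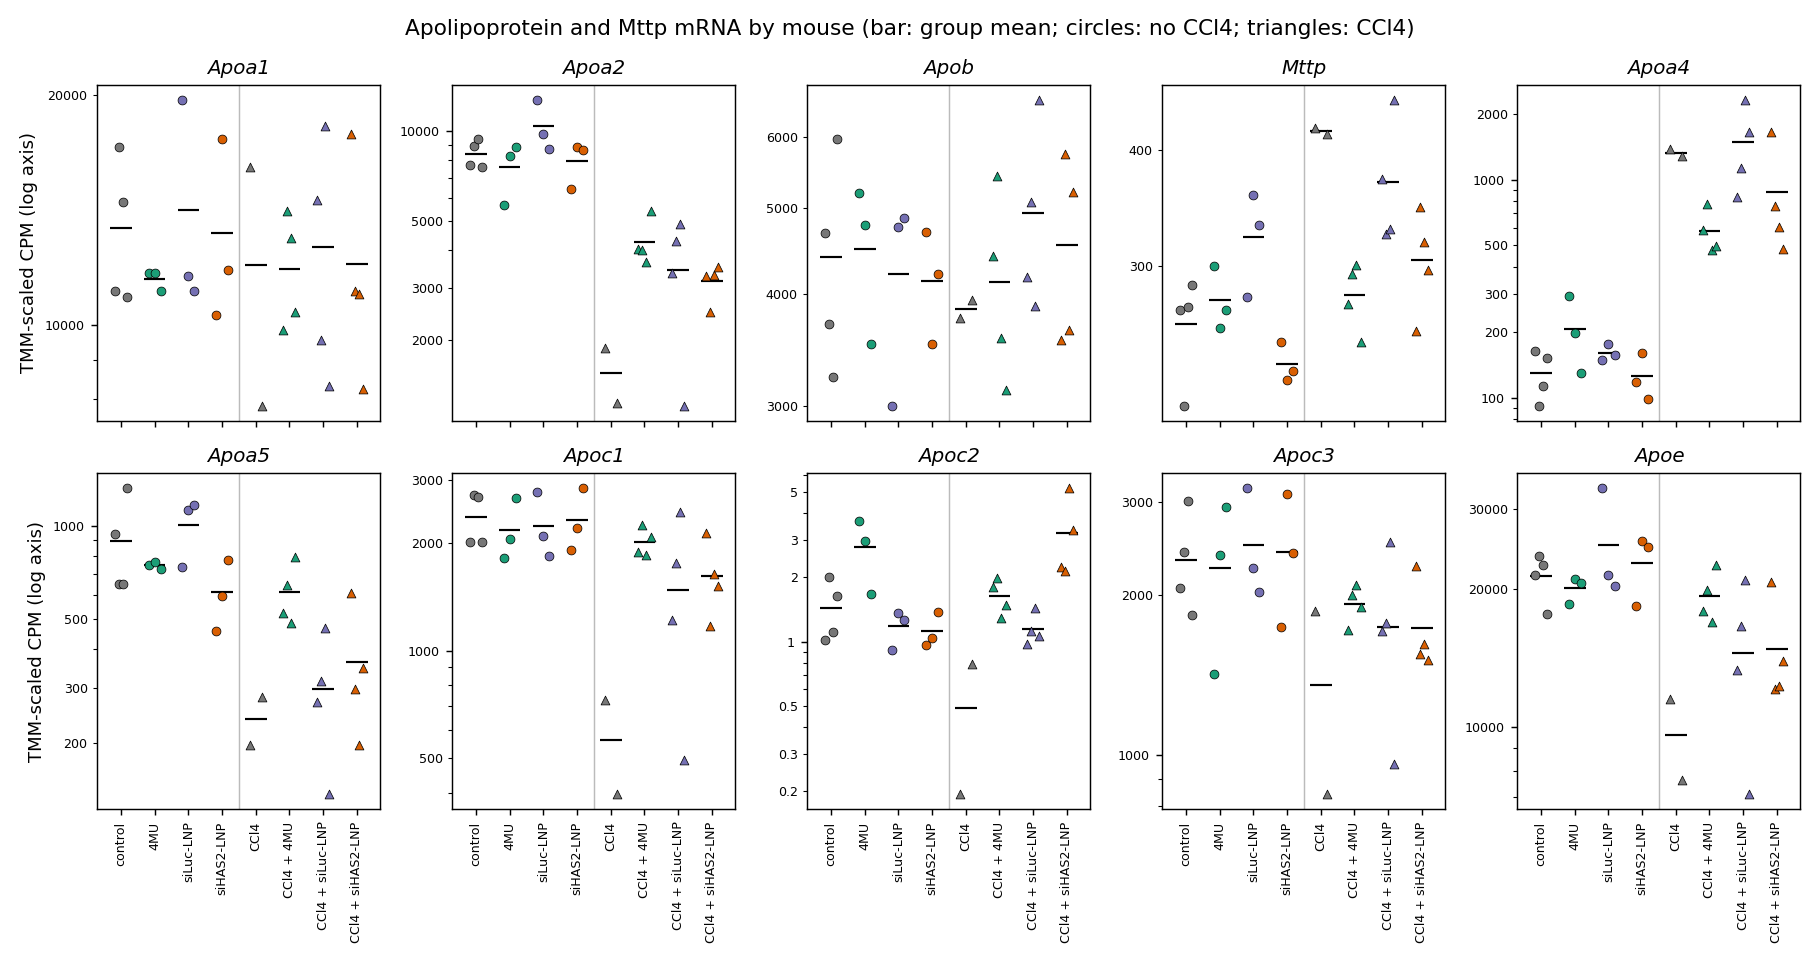
TMM-scaled CPM of the 10 genes in each of the 27 mice on log axes, with circles for mice without CCl4, triangles for mice with CCl4 and bars for group means. All triangles lie above all circles for Apoa4 (478 to 2310 against 92.4 to 292 CPM) and below them for Apoa2 (1210 to 5400 against 5660 to 12700 CPM), while those of Apob and Apoa1 are interleaved.

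The members together took 3.16% to 7.29% of all counts in a library, with a median of 4.49%. Their share was 4.94% ± 0.53 (SD, n = 4) in control mice and 3.16% and 4.26% in the 2 CCl4 mice. Per kilobase of the canonical transcript, Apoa2 was the most abundant in control mice, at 16300 ± 1740 CPM per kb (SD, n = 4), followed by Apoe (9810 ± 1200) and Apoa1 (9040 ± 1980), whose ranges overlapped. Then came Apoc1 (1680 ± 290), Apoc3 (961 ± 210), Apoa5 (330 ± 118) and Apob (316 ± 86.9), the last pair with overlapping ranges. Apoa4 (72.0 ± 18.6) and Mttp (65.4 ± 8.16) also overlapped, and Apoc2 was lowest at 1.81 ± 0.581 CPM per kb. In the CCl4 mice the order at the top was Apoa1 (8080 CPM per kb), Apoe (4380) and Apoa2 (3000), of which only Apoe and Apoa2 overlapped. Counted per kilobase of all annotated exons, which for Apoa2 span 4350 bases against 518 in its canonical transcript, Apoa1, Apoe and Apoa2 were ordered that way in control mice too.

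CCl4 raised Apoa4, an apolipoprotein of intestine and liver, and lowered Apoa2 of HDL in every arm of the study. Averaged over the 4 arms (CCl4 against control and each treated group with CCl4 against the same treatment without it), 7 of the 10 members passed edgeR's test at an adjusted p under 0.05, against 51.9% of the 14114 genes tested. Apoa4 and Mttp were higher (26.3% of all genes were), and Apoa2, Apoa5, Apoc1, Apoc3 and Apoe were lower (25.6% were). The median log2 difference was -0.34 over the members and -0.02 over all genes. Apoa1, Apob and Apoc2 did not pass.

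Apoa4 was at 164, 92.4, 113 and 153 CPM in control mice and at 1380 and 1280 CPM in CCl4 mice. In mice given an agent without CCl4 it was 292, 198 and 130 CPM with 4MU, 149, 176 and 158 CPM with siLuc-LNP and 118, 160 and 98.7 CPM with siHAS2-LNP. With CCl4 it was 589, 772, 478 and 498 CPM in CCl4 + 4MU mice, 835, 1130, 2310 and 1650 CPM in CCl4 + siLuc-LNP mice and 1650, 758, 608 and 482 CPM in CCl4 + siHAS2-LNP mice. Every mouse with CCl4 was above every mouse without it, and CCl4 + 4MU mice were the lowest of the CCl4 groups by mean. The rise averaged over arms was 6.55-fold (log2 2.71, SE 0.19, 95% interval 2.31 to 3.11, adjusted p = 2.65e-11). It was 10.2-fold against control (log2 3.34, SE 0.39, adjusted p = 4.88e-07), 9.2-fold with siLuc-LNP (log2 3.2, adjusted p = 2.36e-06), 6.97-fold with siHAS2-LNP (log2 2.8, adjusted p = 2.88e-05) and 2.83-fold with 4MU (log2 1.5, adjusted p = 0.0045). Because Apoa4 is also an intestinal gene, enterocyte markers were read beside it. Their summed level was 42.3 to 140 CPM without CCl4 and 56.4 to 245 CPM with it, most of it Fabp2, an intestinal fatty acid binding protein, at 42.1 to 140 and 50.1 to 227 CPM. Cdh17, an intestinal cadherin, was at 0 to 0.114 CPM without CCl4 and 0.961 to 29.9 CPM with it, while the brush-border genes Alpi (0 counts in 21 libraries, at most 3) and Vil1 (0 in 5 libraries, at most 149, in mouse 4 of CCl4 + 4MU) were near 0. Both enterocyte genes that could be tested, Fabp2 and Cdh17, rose, and their part in the rise of Apoa4 was not tested. On the opposite strand, Gm47528 shares 34.93% of the exon bases of Apoa4 but had 2 to 16 counts.

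Apoa2, the smaller of the major HDL proteins, was at 7730, 8960, 9420 and 7590 CPM in control mice and at 1880 and 1230 CPM in CCl4 mice. Without CCl4 it was 5660, 8250 and 8880 CPM with 4MU, 12700, 9820 and 8750 CPM with siLuc-LNP and 6400, 8850 and 8680 CPM with siHAS2-LNP. With CCl4 it was 4040, 4010, 3660 and 5400 CPM in CCl4 + 4MU mice, 3370, 4300, 4900 and 1210 CPM in CCl4 + siLuc-LNP mice and 3290, 2490, 3300 and 3520 CPM in CCl4 + siHAS2-LNP mice. All 14 CCl4 mice were below all 13 others. Apoa2 fell by 1.55 on the log2 scale over the arms (SE 0.16, 95% interval -1.88 to -1.22, adjusted p = 1.55e-08). The difference was -2.44 against control (SE 0.38, adjusted p = 3.06e-05), -1.6 with siLuc-LNP (adjusted p = 0.000343), -1.34 with siHAS2-LNP (adjusted p = 0.00343) and -0.83 with 4MU (adjusted p = 0.0431). The call with 4MU was lost without mouse 2 or 3 of 4MU or mouse 1, 2 or 3 of CCl4 + 4MU (adjusted p 0.0315 to 0.164 over the 7 omissions). Apoa1, the main HDL protein, did not pass in any arm. It was at 11100, 17100, 14500 and 10900 CPM in control mice and 16100 and 7850 CPM in CCl4 mice, the first inside the control range and the second below it. Its difference over the arms was -0.1 (95% interval -0.43 to 0.23, adjusted p = 0.616).

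Of the pair that builds the VLDL particle, Mttp rose against control and over the arms, and Apob did not pass. Apob was at 4690, 3700, 3230 and 5970 CPM in control mice and at 3760 and 3940 CPM in CCl4 mice, inside the control range, with a difference over the arms of 0.01 (95% interval -0.26 to 0.28, adjusted p = 0.95). Mttp was at 269, 212, 271 and 286 CPM in control mice and at 423 and 417 CPM in CCl4 mice. In 4MU, siLuc-LNP and siHAS2-LNP mice without CCl4 it ranged from 257 to 300.0, 278 to 358 and 226 to 248 CPM, and with CCl4 from 248 to 301, 325 to 453 and 255 to 347 CPM. The CCl4 mice stood above the control mice, while 4 of the 14 mice with CCl4 were above all others. Mttp rose by 0.7 on the log2 scale against control (SE 0.16, adjusted p = 0.0017) and by 0.32 over the arms (SE 0.075, adjusted p = 0.000928), 1.62-fold and 1.25-fold. Its differences with 4MU (0.02, adjusted p = 0.944), siLuc-LNP (0.2, adjusted p = 0.346) and siHAS2-LNP (0.37, adjusted p = 0.0919) did not pass.

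Apoa5, which favours triglyceride lipolysis, was at 944, 649, 648 and 1320 CPM in control mice and at 196 and 280 CPM in CCl4 mice. It was 735, 1120 and 1170 CPM in siLuc-LNP mice and 270, 315, 470 and 137 CPM in CCl4 + siLuc-LNP mice. In 4MU mice it was 748, 762 and 728 CPM, and in CCl4 + 4MU mice 525, 645, 487 and 793 CPM. The groups were apart in CCl4 against control and in the siLuc-LNP arm and overlapped in the pair with 4MU. In siHAS2-LNP mice it was 459, 595 and 778 CPM and with CCl4 609, 298, 196 and 348 CPM, also overlapping. Apoa5 fell by 1.17 on the log2 scale over the arms (SE 0.18, adjusted p = 8.82e-06). Its difference was -1.91 against control (SE 0.43, adjusted p = 0.00146) and -1.76 with siLuc-LNP (adjusted p = 0.000602). Its differences with 4MU (-0.28, adjusted p = 0.587) and siHAS2-LNP (-0.75, adjusted p = 0.155) did not pass.

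The C apolipoproteins, which tune lipolysis, moved unequally. Apoc1, an inhibitor of lipoprotein uptake, was at 2010, 2730, 2700 and 2010 CPM in control mice and at 729 and 397 CPM in CCl4 mice, below each of the mice without CCl4 (1820 to 2850 CPM). It fell by 2.07 on the log2 scale against control (SE 0.41, adjusted p = 0.000462) and by 0.83 over the arms (SE 0.17, adjusted p = 0.000305), and did not pass in any of the 3 treated arms (-0.11 to -0.6). Apoc3, an inhibitor of lipoprotein lipase, was at 2070, 2420, 3020 and 1840 CPM in control mice and at 1870 and 843 CPM in CCl4 mice, which overlapped, and its difference against control was -0.78 (adjusted p = 0.0873). Over the arms Apoc3 fell by 0.5 (SE 0.16, adjusted p = 0.00977), a call that was lost without mouse 2 of CCl4 (-0.38, adjusted p = 0.0593). Apoc2, the activator of lipoprotein lipase, was at 1.02, 2.01, 1.11 and 1.64 CPM in control mice and at 0.195 and 0.791 CPM in CCl4 mice, that is 4 and 21 counts. It fell by 1.48 against control (SE 0.47, adjusted p = 0.0173), which was lost without mouse 1 of CCl4 (-0.84, adjusted p = 0.234), and it did not pass over the arms (-0.19, 95% interval -0.59 to 0.21, adjusted p = 0.427). Apoe, the ligand of remnant clearance, was at 21500, 23700, 22600 and 17700 CPM in control mice and at 11500 and 7650 CPM in CCl4 mice, lower without overlap. It fell by 1.16 against control (SE 0.33, adjusted p = 0.00873) and by 0.66 over the arms (SE 0.14, adjusted p = 0.000493). Against control the call of Apoe was lost without mouse 2 of CCl4 (-0.88, adjusted p = 0.172).

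By arm, 7 members passed in CCl4 against control, where 34.0% of all genes did, with a median member difference of -0.97 on the log2 scale against -0.02 over all genes. In the arm with 4MU 2 passed (23.7% of all genes, member median -0.12), Apoa4 and Apoa2. In the arm with siLuc-LNP 4 passed (24.2%, median -0.33): Apoa4, Apoa2, Apoa5 and Apoe. Apoe was at 33300, 21500 and 20300 CPM in siLuc-LNP mice and 13300, 16600, 21000 and 7130 CPM in CCl4 + siLuc-LNP mice, overlapping, and fell by 0.79 (adjusted p = 0.0381), a call lost without mouse 1 of siLuc-LNP or mouse 1 or 4 of CCl4 + siLuc-LNP (adjusted p up to 0.242). In the arm with siHAS2-LNP 3 passed (12.8%, median -0.3): Apoa4 and Apoa2 as in the other arms, and Apoc2, which rose. Apoc2 was at 0.969, 1.04 and 1.38 CPM in siHAS2-LNP mice and 2.23, 2.15, 5.22 and 3.34 CPM in CCl4 + siHAS2-LNP mice, higher in all 4. Its rise was 2.88-fold (log2 1.53, SE 0.38, adjusted p = 0.00829), and without mouse 3 of CCl4 + siHAS2-LNP it was 1.17 with an adjusted p of 0.0501. Apoa2 and Apoa4 passed in each arm and no other member did.

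**Figure D2:**
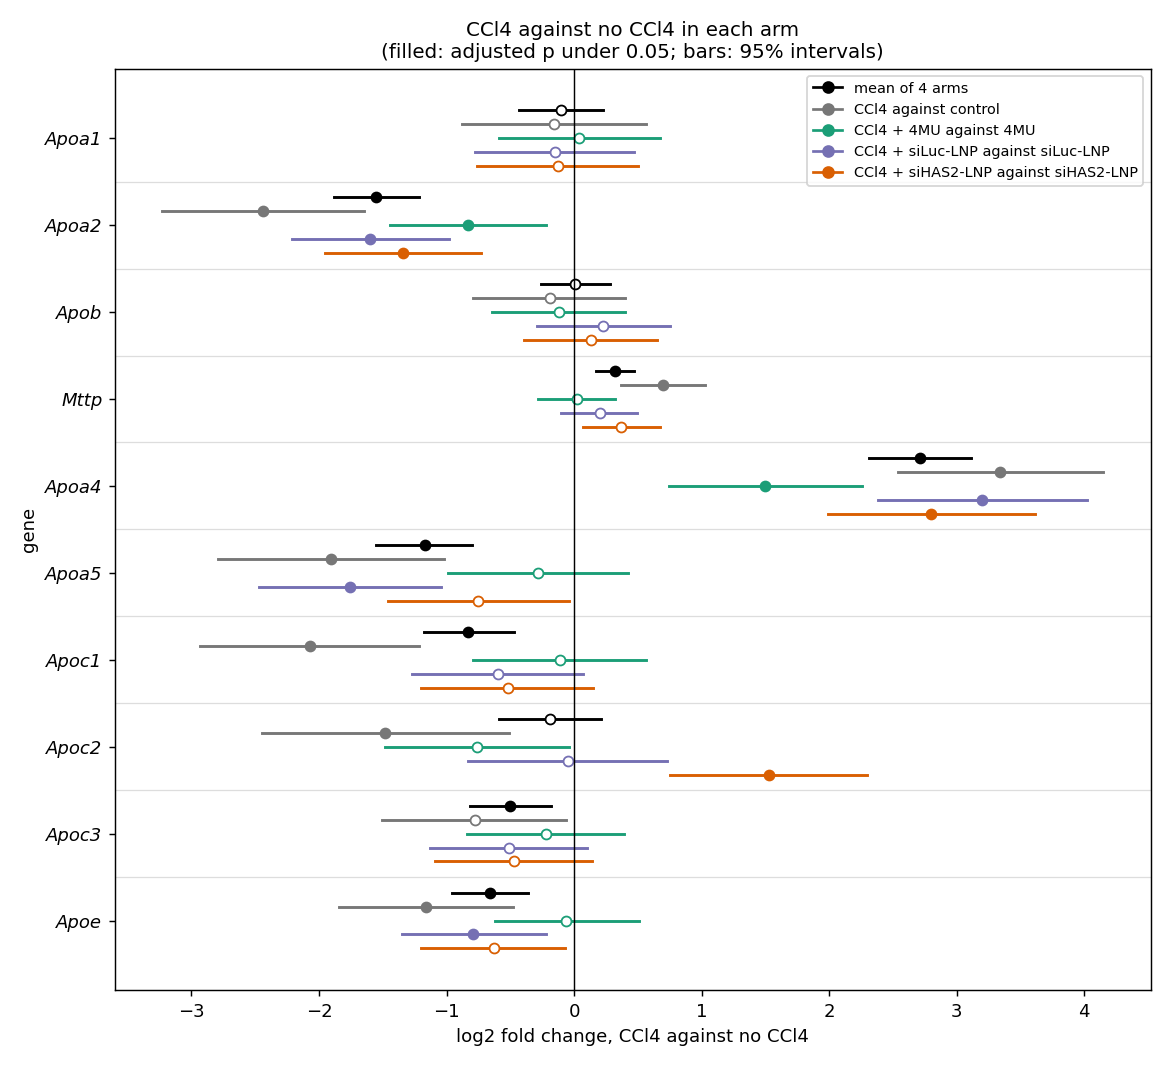
Log2 fold change of CCl4 against no CCl4 for each gene, averaged over 4 arms (black) and in each arm (colours), with 95% intervals and filled points for an adjusted p under 0.05. Apoa4 lies to the right in every arm (log2 1.5 to 3.34) and Apoa2 to the left (-0.83 to -2.44), and for both the value with 4MU is the nearest to 0.

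To ask whether these genes differed when an agent was given alongside CCl4, each treated CCl4 group was set against the same 2 CCl4 mice. The 3 comparisons are therefore not independent of each other. In the paper, dosing with 4MU and with the particles began before the first CCl4 injection. The comparisons thus do not test the reversal of an established change. With 4MU, 7 members passed (18.3% of all genes did): Apoa2, Apoa5, Apoc1, Apoc2 and Apoe were higher (8.28% of genes were) and Apoa4 and Mttp lower (10% were). The CCl4 mice here are those also set against control, so that the changes against control and with 4MU are not independent. The member median was 0.76 and that of all genes 0.04.

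Apoc1 was at 1890, 2250, 1850 and 2080 CPM in CCl4 + 4MU mice, inside the range of mice without CCl4, and was 3.59-fold higher than in CCl4 mice (log2 1.84, SE 0.41, adjusted p = 0.00411). Apoc2 was at 1.81, 1.99, 1.29 and 1.49 CPM (log2 1.67, SE 0.47, adjusted p = 0.0159). Apoe was at 17900, 19900, 17000 and 22600 CPM (log2 1.02, SE 0.33, adjusted p = 0.0332). All 4 mice were above both CCl4 mice in each of these genes. Apoa2, with 3660 to 5400 CPM, was 2.75-fold above CCl4 mice (log2 1.46, SE 0.36, adjusted p = 0.00809) and still below every mouse without CCl4. Apoa5 was 2.58-fold higher (log2 1.37, SE 0.42, adjusted p = 0.0258). Apoa4 fell by 1.18 on the log2 scale (SE 0.39, adjusted p = 0.0353) and Mttp, at 273, 294, 301 and 248 CPM, by 0.59 (SE 0.16, adjusted p = 0.0137). No CCl4 + 4MU mouse overlapped the CCl4 mice in any of the 7, which were picked by a test on these same values. The share of all genes without overlap is not given here, so this only describes the values. The hepatocyte marker sum also differed without overlap, at 84800 and 137000 CPM in CCl4 mice and 168000 to 198000 CPM in CCl4 + 4MU mice, as did the stellate cell marker sum, at 673 and 895 CPM and 329 to 662 CPM, and their part in the result was not tested. Apoc3 (0.51, adjusted p = 0.314), Apoa1 (-0.01, adjusted p = 0.981) and Apob (0.1, adjusted p = 0.832) did not pass. The count rested on the 2 CCl4 mice: without mouse 1 of CCl4 4 members passed (Apoa2, Mttp, Apoc1 and Apoe), without mouse 2 of CCl4 only Apoc2 did, and without mouse 4 of CCl4 + 4MU 4 did (Apoa2, Mttp, Apoc2 and Apoc1). Over all genes the calls went from 2580 of 14114 to 2332 of 14123, 184 of 14099 and 1651 of 14039 in these omissions, so the loss without mouse 2 is not one of the members alone. With mouse 2 left out, Apoc1 differed by 1.44 (adjusted p = 0.14) and Apoa2 by 1.16 (adjusted p = 0.184).

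With siHAS2-LNP, 2 members passed against CCl4 (14.4% of all genes did), both higher (7.11% of genes were, and 7.33% were lower), and the member median was 0.48 against 0.02 over all genes. Apoc2, at 2.15 to 5.22 CPM in CCl4 + siHAS2-LNP mice, was 6.28-fold higher (log2 2.65, SE 0.48, adjusted p = 0.00143). Apoc1 was at 2140, 1170, 1640 and 1520 CPM, above both CCl4 mice, a difference of 1.52 (SE 0.4, adjusted p = 0.0141), and its call was lost without mouse 2 of CCl4 (1.12, adjusted p = 0.272). Apoa2 (1.02, adjusted p = 0.0538) and Mttp (-0.47, adjusted p = 0.0529) did not overlap the CCl4 mice and did not pass, and both passed without mouse 4 of CCl4 + siLuc-LNP and mouse 4 of CCl4 + siHAS2-LNP, when 4 members did. With siLuc-LNP, the particle with the control siRNA, 0 members passed against CCl4, where 0.248% of all genes did. At an unadjusted p under 0.05 there were 3 (Apoa2, Apoc1 and Apoc2), DESeq2 called 2 and limma-voom 1. The shares of all genes at that threshold and in those tools are not given here, so these counts cannot be set against them. Apoc1 was at 1220, 1760, 2450 and 492 CPM in CCl4 + siLuc-LNP mice, the last of them between the 2 CCl4 mice. Its difference was 1.4 (adjusted p = 0.107) and that of Apoa2 1.15 (adjusted p = 0.135), and without that mouse 4 both passed (adjusted p = 0.0023 and 0.00218).

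**Figure D3:**
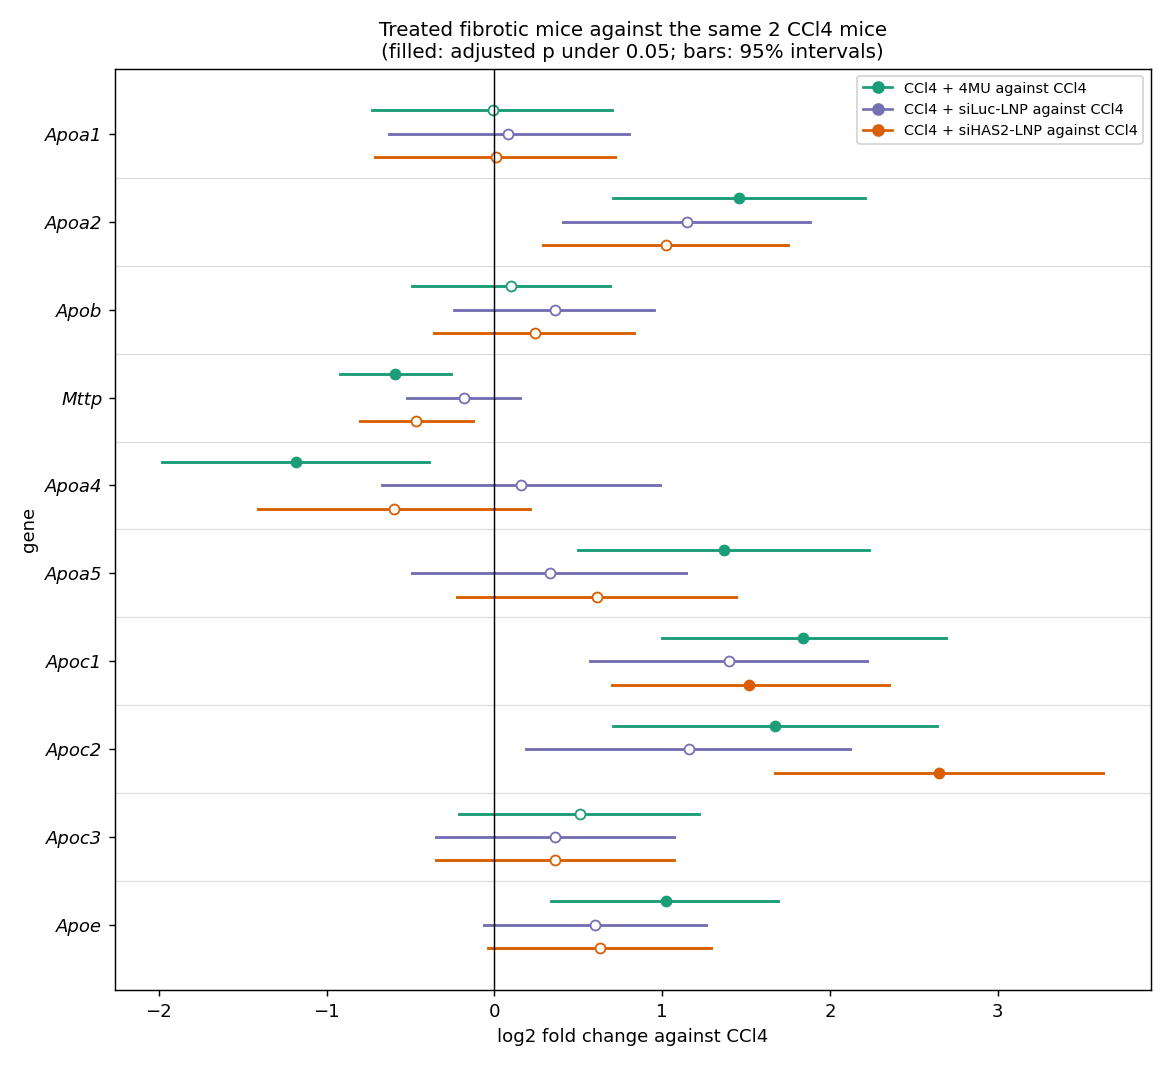
Log2 fold change of each treated CCl4 group against the same 2 CCl4 mice for each gene, with 95% intervals and filled points for an adjusted p under 0.05. Filled points are 7 for 4MU, 2 for siHAS2-LNP (Apoc1 at 1.52 and Apoc2 at 2.65) and 0 for siLuc-LNP.

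Apoc2 passed the test between the siRNAs in livers given CCl4, a call that many other fits lost. CCl4 + siHAS2-LNP mice were set against CCl4 + siLuc-LNP mice to separate the Has2 siRNA from its particle, and 1 member passed, where 1.09% of all genes did. Apoc2 was at 0.98, 1.12, 1.44 and 1.07 CPM in CCl4 + siLuc-LNP mice, all below the CCl4 + siHAS2-LNP mice, and was 2.82-fold higher with siHAS2-LNP (log2 1.49, SE 0.34, adjusted p = 0.0349). The call was lost without mouse 3 or 4 of CCl4 + siHAS2-LNP or mouse 1, 2 or 4 of CCl4 + siLuc-LNP (adjusted p up to 0.19). Of 10 alternative settings 6 kept it, and limma-voom was among those that lost it. It rests on at most 130 counts per library, which are uncertain because Apoc2 shares exon bases with Apoc2l. Between CCl4 + 4MU and CCl4 + siHAS2-LNP mice 0 members passed in edgeR (1.22% of all genes did). An unadjusted p under 0.05 was found for 2 (Apoc2, -0.98, and Apoa5, 0.76), DESeq2 called 0 and limma-voom 1, without the matching shares of all genes.

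In livers without CCl4, 0 members passed in edgeR for 4MU against control (0.00709% of all genes did), for siLuc-LNP against control mice (0.213%), and between siHAS2-LNP and siLuc-LNP mice (0.0425%). At an unadjusted p under 0.05 there was 1 in each: Apoc2 with 4MU (log2 0.95, 95% interval 0.22 to 1.68), Mttp with siLuc-LNP (0.32, 0.02 to 0.61) and Mttp with siHAS2-LNP (-0.46, -0.78 to -0.14). DESeq2 called 0 in all 3, and limma-voom 0, 0 and 1, the last being Mttp. The shares of all genes at an unadjusted p and in these tools are not given here. Mttp was at 278, 358 and 332 CPM in siLuc-LNP mice and at 248, 226 and 231 CPM in siHAS2-LNP mice, without overlap.

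For 3 members the difference made by 4MU was not the same with CCl4 as without it. That of Apoa4 had opposite signs, -1.18 with CCl4 (adjusted p = 0.0353) and 0.66 without it (adjusted p = 0.773). In the test of that interaction, (CCl4 + 4MU less CCl4) less (4MU less control), 5.67% of all genes passed, and of the members Apoc1 (log2 1.96, SE 0.52, adjusted p = 0.0328), Apoa4 (-1.84, SE 0.52, adjusted p = 0.0401) and Apoa2 (1.61, SE 0.46, adjusted p = 0.043). Apoa5 (1.62, adjusted p = 0.0676), Mttp (-0.68, adjusted p = 0.0589) and Apoe (1.11, adjusted p = 0.107) had the sign of the change that 4MU made in CCl4 mice and did not pass. Leaving out 1 mouse left 0 to 2 of the 3, with 0 without mouse 2 of control, mouse 1 or 2 of 4MU, mouse 2 of CCl4, or mouse 1 or 4 of CCl4 + 4MU, and 1 without mouse 1 or 3 of control. For siHAS2-LNP against siLuc-LNP the same interaction passed for 0 members in edgeR, DESeq2 and limma-voom (0.0354% of all genes in edgeR). An unadjusted p under 0.05 was found for 1, Apoc2 (1.58, 95% interval 0.49 to 2.67), and the share of all genes at that threshold is not given here.

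Other genes of lipoprotein metabolism, 62 by list and 61 tested, were also tested with CCl4: 11 were higher and 25 lower over the arms, where 26.3% of all genes were higher and 25.6% lower. The counts by list that follow are to be read against the same shares. Of 11 other apolipoproteins and HDL-borne proteins 2 rose and 6 fell (median log2 difference -0.57), among them Saa2, an acute-phase protein (-1.96, adjusted p = 0.00304), and Pon1, the paraoxonase of HDL, at 958 to 1610 CPM without CCl4 and 191 to 560 CPM with it (-1.68, adjusted p = 1.79e-11). Saa2 differed by -6.45 in the arm with siHAS2-LNP (adjusted p = 0.000412), where 1 of the 3 siHAS2-LNP mice was at 1910 CPM and the others at 48.0 and 49.1 CPM, and its medians with 4MU were 28.2 CPM without CCl4 and 38.0 CPM with it, so that the average does not describe every arm. Of 15 genes of Apob editing and VLDL assembly 4 rose and 6 fell (-0.17), and Sort1, a sorting receptor that binds Apob, rose by 1.28 (adjusted p = 7.31e-06). Of 8 genes of HDL remodelling 2 rose and 4 fell (-0.37), with the cholesterol exporter Abcg1 higher by 0.82 (adjusted p = 6.37e-07). Of 8 lipoprotein receptor genes 1 rose and 1 fell (0.0), the latter Vldlr, which binds Apoe-rich particles (-2.5, adjusted p = 1.55e-10). Of 6 genes of lipoprotein lipase and its regulators 2 rose and 3 fell (-0.19), and Lpl itself, the lipase that Apoc2 activates, rose by 1.94 (adjusted p = 1.74e-07). Lpl was at 29.1 to 224 CPM without CCl4 and 240 to 846 CPM with it. Of 13 transcription factors known for apolipoprotein genes 0 rose and 5 fell (-0.17).

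Against CCl4, 9 of these 61 genes were higher and 2 lower with 4MU, where 8.28% of all genes were higher and 10% lower. With siHAS2-LNP 5 were higher and 3 lower, against 7.11% and 7.33% of all genes. Mlxipl, the carbohydrate-responsive transcription factor ChREBP, was at 39.3 and 82.9 CPM in CCl4 mice, 150 to 178 CPM in CCl4 + 4MU mice and 134 to 274 CPM in CCl4 + siHAS2-LNP mice. It rose by 1.41 with 4MU (adjusted p = 0.00918) and by 1.7 with siHAS2-LNP (adjusted p = 0.00419). Lipc, hepatic lipase, was at 211 to 278 CPM in control and at 39.5 and 65.3 CPM in CCl4 mice, and rose by 1.39 with 4MU (adjusted p = 0.00563) and by 1.24 with siHAS2-LNP (adjusted p = 0.0131). P4hb, the protein disulfide isomerase that is the partner subunit of Mttp, fell by 0.59 with 4MU (adjusted p = 0.0166) and by 0.57 with siHAS2-LNP (adjusted p = 0.0259). Surf4, a cargo receptor for lipoprotein export, fell by 0.44 with 4MU (adjusted p = 0.0188) and by 0.39 with siHAS2-LNP (adjusted p = 0.0419). Pcolce2, an enhancer of collagen processing, was lower with both particles, with a log2 difference of -3.29 for siHAS2-LNP (adjusted p = 0.000535) and of -2.7 for siLuc-LNP (adjusted p = 0.0112), where it was the 1 gene of these lists that passed. Without CCl4 it was also lower with siLuc-LNP than in control mice (-3.42, adjusted p = 0.000754). Pcolce2 was at 2.07 and 2.87 CPM in CCl4 mice and 2.49 to 3.63 CPM in control mice. With particles its CPM was 0.231 to 0.52 (CCl4 + siLuc-LNP), 0.0391 to 0.391 (CCl4 + siHAS2-LNP) and 0.0572 to 0.483 (siLuc-LNP). These levels are near the floor of 3 counts, so the size of the differences is uncertain.

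Libraries differed in how counts depended on transcript length, and most members moved with that. The length slope of a library, the slope of log2 CPM, centred gene by gene, on log2 transcript length over 14071 genes without the members, was -0.103 to -0.00518 in control mice, 0.0738 and 0.154 in CCl4 mice, -0.0365 to 0.0534 in CCl4 + 4MU mice, -0.0722 to 0.208 in CCl4 + siLuc-LNP mice and -0.0284 to 0.081 in CCl4 + siHAS2-LNP mice. Long transcripts thus took relatively more of the counts in the CCl4 mice than in any control mouse. Over the 27 mice, with group means removed, Apoa2, of 518 bases, went down as the slope went up (Pearson's r = -0.91, Spearman's rho = -0.84), as did Apoc1 (r = -0.91, rho = -0.87), Apoe (r = -0.9, rho = -0.87), Apoc3 (r = -0.87, rho = -0.84) and Apoa1 (r = -0.72, rho = -0.68). Apob, of 13934 bases, went up (r = 0.82, rho = 0.88), and so did Mttp (r = 0.76, rho = 0.74). For these 7 the adjusted permutation p was at most 0.001 for r and 0.0022 for rho over 10 genes. The r was -0.64 to -0.83 for the 5 and 0.83 and 0.68 for Apob and Mttp without mice 3 and 4 of CCl4 + siLuc-LNP, the 2 farthest from the median slope. Within the 14 mice with CCl4 and the 13 without, r was -0.93 and -0.92 for Apoa2 and 0.77 and 0.92 for Apob. Apoa4 (r = 0.04, rho = 0.15, adjusted permutation p for r 0.9), Apoa5 (r = -0.31, rho = -0.06, 0.36) and Apoc2 (r = 0.11, rho = 0.14, 0.65) did not pass over the 27 mice. Within the 14 mice with CCl4 and the 13 without, r was -0.68 and 0.52 for Apoa5, -0.19 and 0.54 for Apoa4 and 0.0 and 0.31 for Apoc2, so that the pooled value of Apoa5 joins relations of opposite sign.

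**Figure D4:**
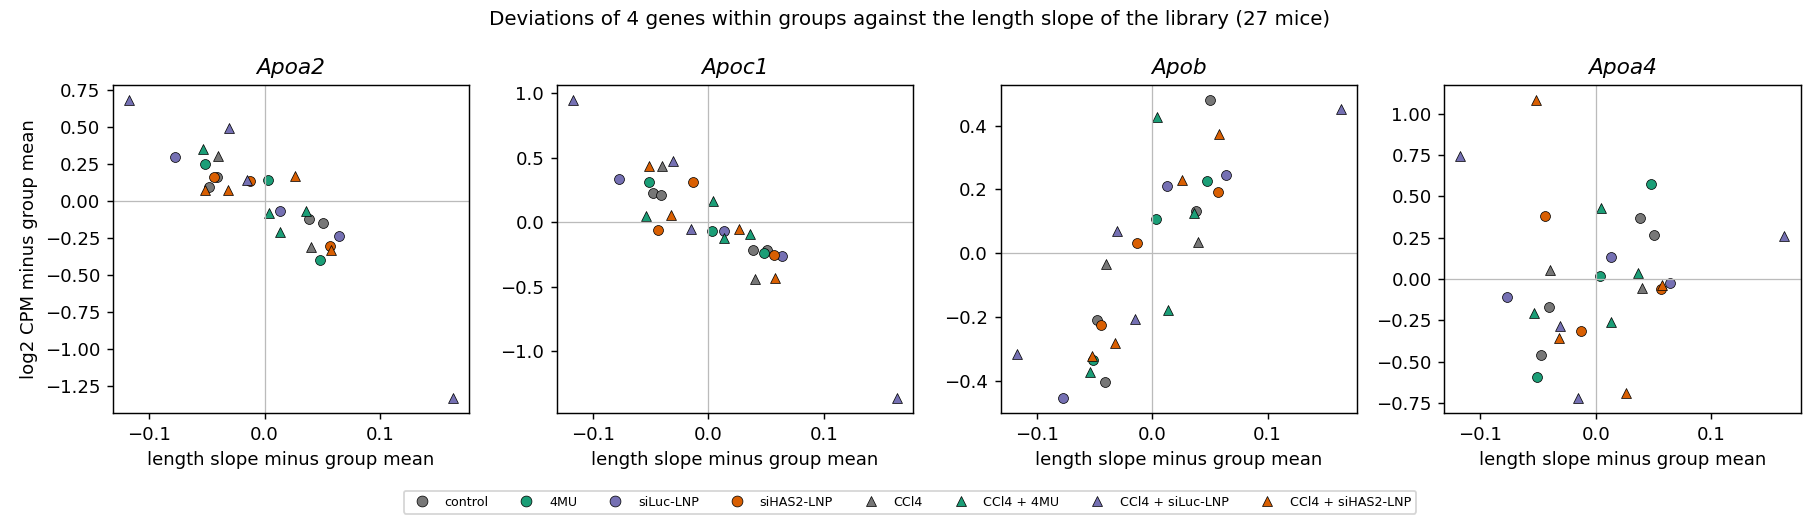
Log2 CPM of 4 genes less the group mean against the length slope of the library less its group mean, each point a mouse, with symbols by group. Apoa2 and Apoc1 descend (r = -0.91 for both), Apob ascends (r = 0.82) and Apoa4 is scattered (r = 0.04).

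With the length slope added to the model, 5 members passed over the arms, where 40.6% of all genes did. Apoa4 (2.73, adjusted p = 1.73e-09), Apoa2 (-1.05, adjusted p = 5.08e-08), Apoa5 (-0.98, adjusted p = 0.000856) and Apoc1 (-0.27, adjusted p = 0.0482) kept their direction and their call. Apoe (-0.22, adjusted p = 0.0899), Mttp (0.15, adjusted p = 0.1) and Apoc3 (0.01, adjusted p = 0.974) no longer passed, and Apob became lower (-0.36, adjusted p = 0.0102). In CCl4 against control 6 passed (22.9% of all genes): Apoa4 (3.38), Apoa2 (-1.48), Apoa5 (-1.49), Apoc1 (-0.99), Apoc2 (-1.56) and Apob (-0.85). In CCl4 + 4MU against CCl4 4 passed (13.4% of all genes), Apoa2 (0.91, adjusted p = 0.00642), Apoc1 (1.26, adjusted p = 0.00151), Apoc2 (1.72, adjusted p = 0.0293) and Mttp (-0.42, adjusted p = 0.0344), and Apoa4 was at -1.2 (adjusted p = 0.058). Of the 3 interactions with 4MU, Apoc1 passed (1.13, adjusted p = 0.034), where 1.86% of all genes did. The slope differs between the groups as well as within them, so that its part and that of CCl4 cannot be told apart.

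**Figure D5:**
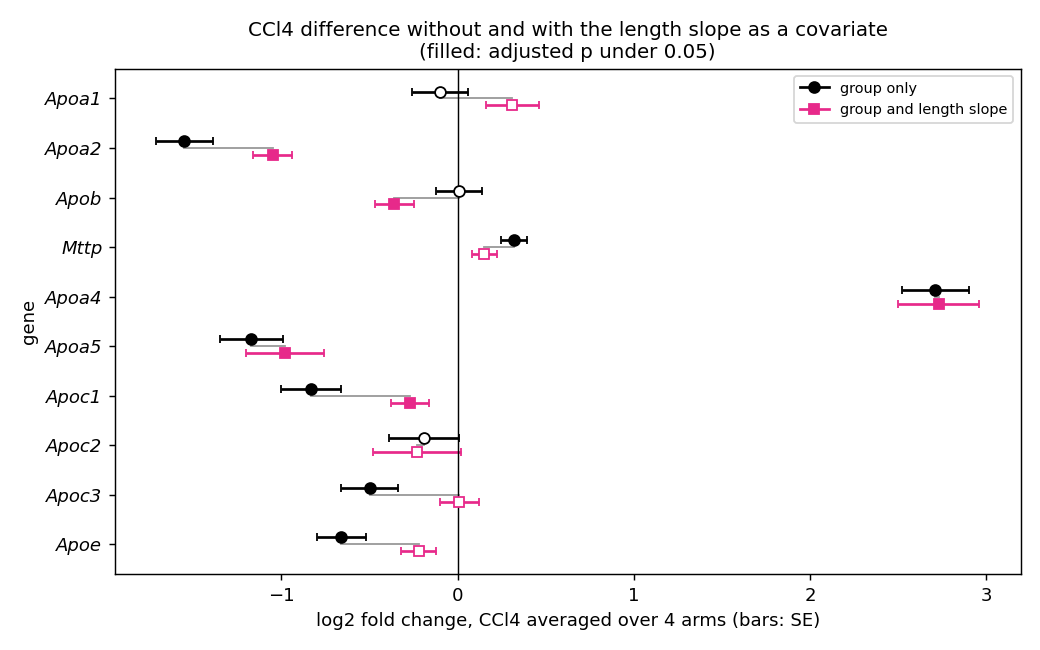
Log2 fold change of CCl4 averaged over 4 arms for each gene without (black) and with (pink) the length slope in the model, with bars for SE and filled points for an adjusted p under 0.05. Apoa4 stays at 2.71 and 2.73 and Apoa5 at -1.17 and -0.98, while Apoc3 goes from -0.5 to 0.01.

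The genes most like each member across mice, by Pearson's r of log2 CPM less the group mean over the 27 mice and over all tested genes, are given as a description, since all points share library and length effects. For Apoa2 they were Sod1 (0.95), Fxyd1 (0.94) and Aurkaip1 (0.94), and for Apoc1 Tmem205 (0.96), Fxyd1 (0.95) and Aurkaip1 (0.95). For Apoc3 they were Cops9 (0.97), Atp5f1e (0.96) and Ndufb9 (0.96), for Apoe Hint2 (0.96), Dtnbp1 (0.95) and Proc (0.94), and for Apoa1 Ufc1 (0.91), Eef1d (0.89) and Rdh5 (0.89). Apob was closest to Atrnl1 (0.92), Cnot1 (0.92) and Prepl (0.9), and Mttp to Zmpste24 (0.87), Itgb1 (0.86) and Fam120a (0.84). Apoa5 was closest to Tmem9 (0.88), Tomm20 (0.83) and Plin5 (0.82), Apoa4 to Abhd12 (0.78), Fkbp5 (0.78) and Anpep (0.77), and Apoc2 to Proser1 (0.83), mt-Nd4l (0.77) and mt-Nd4 (0.77). Among the members, Apoa2 and Apoc1 (0.92), Apoc1 and Apoe (0.92) and Apoa2 and Apoe (0.88) were closest, and Mttp and Apoe were the most opposed (-0.82). The neighbours Apoa4 and Apoa1 had an r of 0.32, Apoa4 and Apoc3 0.02, and Apoa4 and Apoa5 0.41.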

How the data were processed

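RNA-seq of liver from 27 mice in 8 groups was analysed, with groups and replicates taken from the labels. The deposited values are raw counts per gene: the authors trimmed reads with Trimmomatic 0.39, aligned them to GRCm39 with HISAT2 and counted read pairs with featureCounts, without reads that map to several places, and used R 3.4.2 and DESeq2 (whose version, like the strand setting, is not given in the sources used here). Positions and transcript lengths came from GENCODE vM39. Genes averaging 10 or more counts over the libraries, 14114 of 55414, were tested in R 4.3.3 with the quasi-likelihood test of edgeR 4.0.16 after TMM normalisation, all groups in a single fit, with Benjamini-Hochberg adjustment over all tested genes at 0.05. CPM is scaled by TMM. Each difference is a log2 fold change with its 95% interval. Counting error is least certain for Apoc2, and 3 counts were taken as the floor. Replicates are separate mice by the study's description. All 34 pairs of replicates differed by far more than sampling noise (chi-square per degree of freedom 15.3 to 416).

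The members and gene lists were chosen with earlier results of these data known. Named genes are the 10 members, the pathway genes past the threshold that changed most, up to 3 upward and 3 downward per comparison (a selection of them is printed), and the 3 genes most like each member. Marker genes were named from fixed lists, and Krt19, Cdh17 and Vil1 after their values were seen. Correlations used 100000 permutations, of which 1e-05 is the smallest p. Alternatives were DESeq2 1.42.0, limma 3.58.1 (voom with quality weights), DESeq2 size factors, total counts without TMM, no low-count filter, filterByExpr, only the compared groups, the replicate block, all 14 CCl4 mice against 13, and each mouse left out. The length slope as a covariate and 2 libraries left out (mouse 4 of CCl4 + siLuc-LNP and mouse 4 of CCl4 + siHAS2-LNP) were chosen after seeing the data. The scripts were tested on simulated data with 200 genes changed by 1 on the log2 scale. EdgeR recovered 171 over the arms, 89 in CCl4 against control and 72 in CCl4 + 4MU against CCl4. False calls were 7, 4 and 3. A member that did not pass against the CCl4 mice may therefore still have changed. Python 3.11.15 was used for tables and figures.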

Additional observations from a re-analysis of the deposited data

Results flagged for a closer look

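The 4MU by CCl4 interaction, the test of whether 4MU made a different change with CCl4 than without it, passed for 3 members in edgeR: Apoa2 at 1.61 (adjusted p = 0.043), Apoa4 at -1.84 (adjusted p = 0.0401) and Apoc1 at 1.96 (adjusted p = 0.0328) on the log2 scale. For 4MU against control without CCl4, Apoa4 differed by 0.66 (adjusted p = 0.773). Each of the 3 was lost in some fits that left out 1 mouse, and no such fit kept all 3.

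In CCl4 + siHAS2-LNP mice, Apoc3 was at 2270 CPM in mouse 1 and at 1510 to 1620 CPM in the other 3, a gap of 0.859 of the range of the group, above Dixon's 95% critical value for 4 samples. Over the 40 groups of 4 mice and members tested this was the 1 such gap, and chance gives about 2.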

How the results depend on the processing

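Over the arms, 6 to 7 members passed when each mouse was left out, and in CCl4 against control 6 to 7. The ranges were 1 to 2 in the 4MU arm, 3 to 5 in the siLuc-LNP arm, 2 to 4 in the siHAS2-LNP arm, 1 to 6 for CCl4 + 4MU against CCl4, 1 to 3 for CCl4 + siHAS2-LNP against CCl4, 0 to 2 for CCl4 + siLuc-LNP against CCl4, 0 to 2 for CCl4 + siHAS2-LNP against CCl4 + siLuc-LNP, 0 to 2 for the 4MU interaction and 0 in every omission for the other 5 comparisons. Where 1 CCl4 mouse remained, it was assumed to vary like the other groups. The number of all genes called changes with the setting too: over the arms it was 7319 of 14114 in edgeR, 7441 in DESeq2 and 7454 in limma-voom. It is not given beside the counts that follow, so they do not tell a change of the members from one of all genes. DESeq2 called 4 members for CCl4 + siHAS2-LNP against CCl4, 2 for CCl4 + siLuc-LNP against CCl4 and 5 for the 4MU interaction. Limma-voom called 7 in the siHAS2-LNP arm, 1 for CCl4 + siLuc-LNP against CCl4, 0 for CCl4 + siHAS2-LNP against CCl4 + siLuc-LNP, 1 for CCl4 + 4MU against CCl4 + siHAS2-LNP and 1 for siHAS2-LNP against siLuc-LNP. Without the low-count filter 2, 2 and 1 passed for CCl4 + siLuc-LNP against CCl4, CCl4 + siHAS2-LNP against CCl4 + siLuc-LNP and CCl4 + 4MU against CCl4 + siHAS2-LNP. With only the compared groups 0 passed between the siRNAs in CCl4 mice and 5 in the 4MU interaction. Without the 2 libraries named above, 4, 2 and 0 passed for siHAS2-LNP and siLuc-LNP against CCl4 and between the siRNAs. The length slope as a covariate gave 4 for CCl4 + 4MU against CCl4 and 1 for the 4MU interaction, and turned Apoc3 to 0.01 and Apob to -0.36 over the arms.

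With the replicate block 1 passed in the 4MU arm, 0 between the siRNAs in CCl4 mice and 1 in the 4MU interaction. The numbers do not pair the mice: over 83 same-numbered pairs the correlation of deviations was -0.32 to 0.293, with 17 over 0.1, and 4 of 27 mice correlated best with their own number. Of 2780 values of single members under the alternatives, 2645 kept their side of the threshold without a reversal of a called value, 91 lost and 42 gained the call, and 2 reversed. The sign changed in 209, of which 207 were called in neither fit. Total counts without TMM moved the median of all genes from -0.02 to 0.16 over the arms (74.6% of calls higher against 50.7%), from -0.02 to 0.39 in CCl4 against control (84.4% against 52.8%) and from 0.04 to -0.3 in CCl4 + 4MU against CCl4 (13.2% against 45.3%), and left 7, 6 and 7 members called. Low counts limit Apoc2 alone among the members, for a reason that was not tested. The causes of these shifts were not tested.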
